A study of Mus musculus with 12 samples.

Results

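The AP-1 transcription factors described here are 8 genes, chosen by symbol: Fos, Fosb and Fosl2 of the Fos family, Jun, Junb and Jund of the Jun family, and the related Batf and Atf3. They are 8 of the 18193 mouse genes with a probe set of their own on the arrays, and 11 probe sets mapped to a single member. The genes were chosen with earlier results of these data known. Counts of members beside shares of all probe sets are therefore descriptions. All 8 were measured, and where a gene had 2 probe sets (Fosl2, Jun and Jund) the brighter over the 12 arrays is the main value. RNA came from B220-positive splenic B cells of C57BL/6 mice with the transgene Tg(IghelMD4)4Ccg, which gives the B cells a receptor for hen egg lysozyme (HEL). The cells were enriched on magnetic beads and cultured with an anti-CD40 antibody, interleukin-21 and HEL. There were 6 groups of 2 arrays each, labelled Jmjd2a depleted, Jmjd2c depleted and control at day 1 and at day 3. Jmjd2a and Jmjd2c are histone demethylases, encoded by Kdm4a and Kdm4c. Control cells received the same stimuli with a control construct, which the labels call sicontrol in one place and shcontrol virus in another. The titles call the arrays of a group biological replicates but name no separate animals or cultures, so the p-values measure only the spread between these arrays. Values are log2 as the authors deposited them.

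AP-1 is a dimer of basic leucine zipper proteins. Jun proteins pair with themselves or with Fos proteins, whereas Fos proteins need a Jun partner. Several of these genes, Fos and Jun among them, are immediate early genes. Such genes are switched on within minutes by mitogen and stress signals through MAP kinases and then shut off. In B cells, AP-1 acts downstream of the B cell receptor and CD40, and Batf, which lacks a transactivation domain, binds composite sites with IRF4 or IRF8 and is required for class switching.

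The targeted genes did not separate the labels. Kdm4a was at 7.94 and 8.09 on the day 1 arrays labelled Jmjd2a, against 7.90 and 7.92 on the day 1 controls (log2 difference 0.11, limma adjusted p = 0.62), and the day 3 difference was -0.12 (adjusted p = 0.36). Kdm4c differed by 0.19 at day 1 and 0.03 at day 3 between arrays labelled Jmjd2c and controls (adjusted p = 0.41 and 0.91). Why these genes were not lower was not tested, and the groups are called by their labels. The defining B cell genes were bright on all 12 arrays, with Ms4a1 (CD20) between 11.10 and 13.10 and Cd79b between 11.15 and 12.96, where the median of all probe-set means was 5.22. Day 3 control replicate 2 stood apart from the others. Its values had an interquartile range of 3.08 log2 units, against 3.38 to 3.63 on the other 11 arrays. Its control probe sets for small-subunit ribosomal RNA were at 10.73, against 11.73 to 12.73 on the others, and it correlated with its replicate at 0.9887 over probe sets, against 0.9959 to 0.9978 for the other pairs.

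Promoter sequences of the members were searched for short elements, among them those that AP-1 and CREB/ATF proteins are known to bind. They are RefSeq sequences of assembly GRCm38.p6, from 250 bases before to 50 bases after the annotated start, written 5′ to 3′ on the gene's strand. All 8 members had 1 such window. The windows of Fos (chr12:85473640-85473939, plus strand), Fosb (chr7:19309996-19310295, minus strand) and Jun (chr4:95052173-95052472, minus strand) are shown because these genes had the highest day 1 rises. That of Batf (chr12:85686470-85686769, plus strand) is shown because Batf moved the other way. Capitals mark TGACG, the core of the cyclic AMP response element, and TGACATCA, the element known from the Jun promoter.
Fos: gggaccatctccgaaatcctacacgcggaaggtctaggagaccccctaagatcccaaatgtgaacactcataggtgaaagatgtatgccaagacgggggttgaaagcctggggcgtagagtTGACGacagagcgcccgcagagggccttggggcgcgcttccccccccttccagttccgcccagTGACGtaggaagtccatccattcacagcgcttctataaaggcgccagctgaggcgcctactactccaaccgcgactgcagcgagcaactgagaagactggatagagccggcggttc
Fosb: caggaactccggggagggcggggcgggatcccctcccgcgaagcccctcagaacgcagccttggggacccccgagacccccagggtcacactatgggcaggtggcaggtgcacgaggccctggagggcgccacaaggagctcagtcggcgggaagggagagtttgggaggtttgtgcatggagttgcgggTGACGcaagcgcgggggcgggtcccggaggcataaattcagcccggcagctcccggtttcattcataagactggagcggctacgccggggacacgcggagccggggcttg
Jun: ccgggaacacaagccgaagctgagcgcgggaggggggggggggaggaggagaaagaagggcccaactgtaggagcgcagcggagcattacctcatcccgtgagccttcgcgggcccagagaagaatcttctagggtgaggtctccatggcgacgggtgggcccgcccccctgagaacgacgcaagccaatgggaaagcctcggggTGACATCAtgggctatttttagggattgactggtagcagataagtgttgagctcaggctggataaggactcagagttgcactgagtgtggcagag
Batf: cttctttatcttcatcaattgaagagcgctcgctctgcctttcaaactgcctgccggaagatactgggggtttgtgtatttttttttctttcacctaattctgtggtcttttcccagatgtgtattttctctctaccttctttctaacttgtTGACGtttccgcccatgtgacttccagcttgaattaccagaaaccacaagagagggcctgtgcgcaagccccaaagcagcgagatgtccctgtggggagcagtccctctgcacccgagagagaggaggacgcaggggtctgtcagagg
Counting the annotated start as position 1 and the base before it as -1, TGACG begins at -129 and -66 in Fos, at -60 in Fosb and at -98 in Batf. It was also found at -106 in Junb and, on the other strand, at -7 in Atf3. Thus 5 of the 8 members hold TGACG, and 20.8% of 32851 windows of the same length do. TGACATCA begins at -45 in Jun, the only member with it, and 3.62% of windows hold it. The consensus AP-1 site TGANTCA, the full element TGACGTCA (which contains TGACG), the STAT-type TTCNNNGAA and the CArG box were in none of the 8 windows. They were in 7.81%, 1.79%, 8.3% and 1.63% of all windows. TATAAA was in the windows of Fos and Junb and in 13.6% of all, and GGGCGG was in those of 6 members and in 35.7% of all. All motifs were searched on both strands. The sequences are those of the reference, and a match is a description of letters. Bases outside the windows were not searched, so a missing match does not show that a gene lacks the element.

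At day 1, Fos, Fosb, Jun and Atf3 were higher on the arrays labelled Jmjd2a and Jmjd2c than on controls, and Batf was lower. On the arrays labelled Jmjd2a, 4 of 8 members rose and 1 fell, where 4.23% of the 45037 probe sets rose and 3.25% fell. The members' median difference was 0.60, against -0.04 over all probe sets. On those labelled Jmjd2c, 4 rose and 2 (Batf and Fosl2) fell, where 5.32% of probe sets rose and 5.69% fell. The medians were 0.50 over the members and -0.03 over all probe sets. A call means a limma adjusted p under 0.05 over all probe sets. Both labels were set against the same 2 control arrays.

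At day 3, Fos, Fosl2, Junb and Batf were higher under both labels than in controls. Of these, Fos and Batf were called on both days under both labels, and Batf had been lower at day 1. Fosl2 had been called lower at day 1 under the Jmjd2c label. On the arrays labelled Jmjd2a, 4 members rose and 0 fell, where 13.7% of probe sets rose and 7.11% fell. On those labelled Jmjd2c, 4 rose and 1 (Jund) fell, where 9.28% rose and 5.04% fell. The members' medians were 0.09 and 0.06, against -0.04 and -0.01 over all probe sets. Without day 3 control replicate 2, 4 rose and 0 fell under the Jmjd2a label, where 10.6% of probe sets rose and 6.59% fell. Under the Jmjd2c label 3 then rose and 0 fell, where 8.46% rose and 7.58% fell. With only the arrays compared in the model, 2 rose and 2 (Jun and Jund) fell under each label, where 5.07% of probe sets rose and 2.57% fell for the Jmjd2a label and 3.2% rose and 2.38% fell for the Jmjd2c label.

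**Figure D1:**
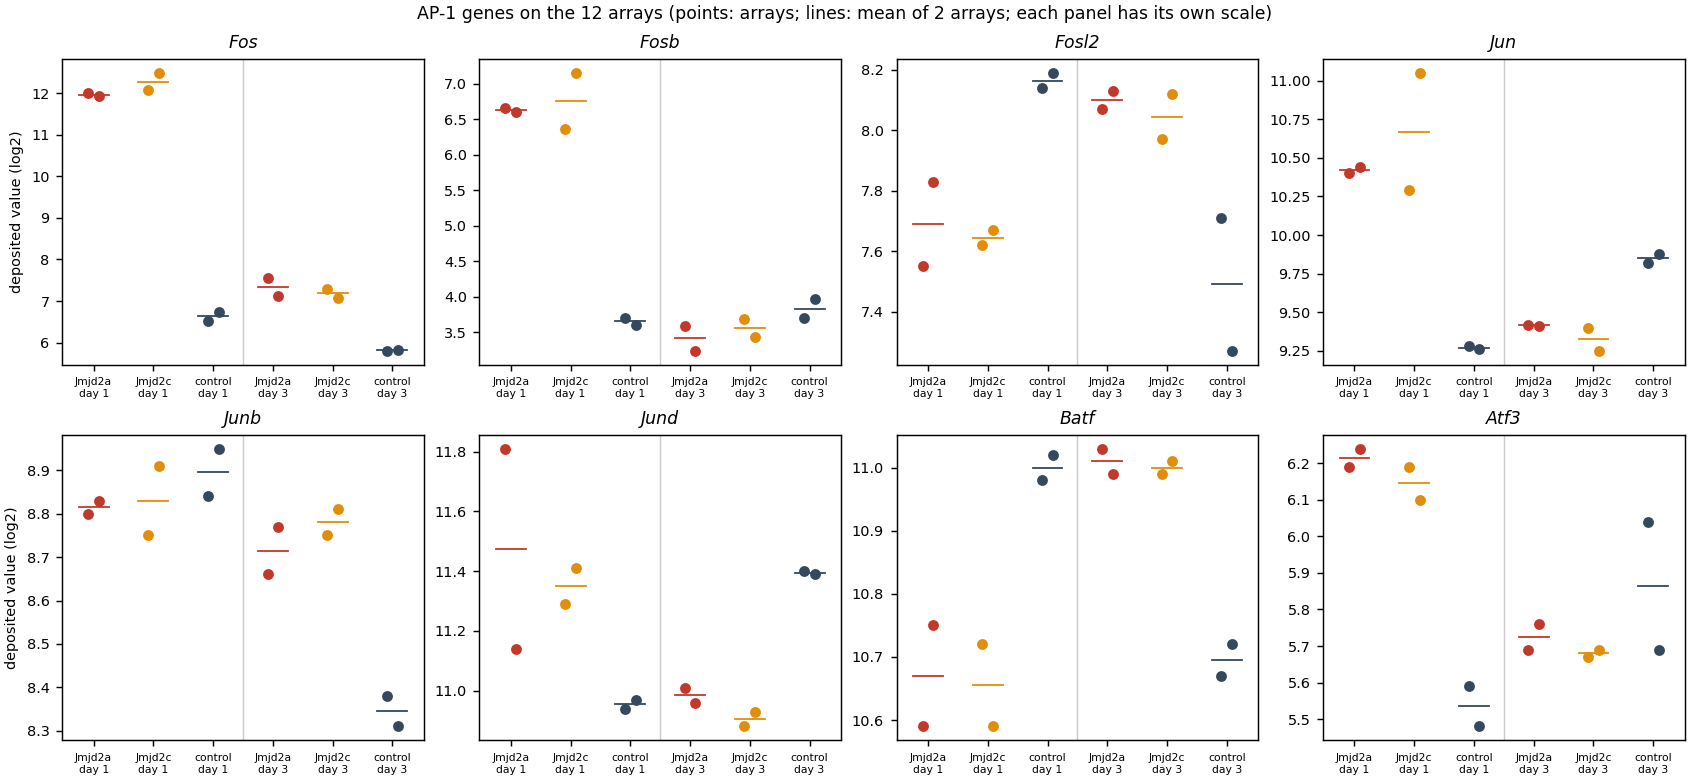
Log2 values of the 8 members on each of the 12 arrays, with points for arrays and lines for the mean of 2 arrays, in panels with their own vertical scales. Fos, Fosb, Jun and Atf3 were highest on the day 1 arrays labelled Jmjd2a or Jmjd2c, whereas Batf and Fosl2 were highest on day 1 controls and on day 3 arrays of either label.

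Fos, whose protein gives the classical Fos:Jun dimer, showed the largest difference of the 8 members. On day 1 it was at 12 and 11.94 on the arrays labelled Jmjd2a and at 12.07 and 12.49 on those labelled Jmjd2c, against 6.53 and 6.73 on controls. The labelled and control arrays did not overlap and lay more than 5 log2 units apart. The differences were 5.35 ± 0.16 (SE, 95% interval 5.01 to 5.69, 40.7-fold, adjusted p = 4.5e-09) for the Jmjd2a label and 5.65 ± 0.16 (5.31 to 5.99, 50.2-fold, adjusted p = 2.4e-09) for the Jmjd2c label. Among the 45037 probe sets these were the 5th highest rises of their comparisons. On day 3 Fos was at 7.55 and 7.13 on the arrays labelled Jmjd2a and at 7.29 and 7.08 on those labelled Jmjd2c, against 5.80 and 5.82 on controls. All 4 labelled arrays were again above both controls, by 1.53 (2.88-fold, adjusted p = 4e-05) and 1.37 (2.59-fold, adjusted p = 0.0001). These were whole-culture RNA values, in which more cells of a type and more RNA per cell cannot be told apart. Fos remained past the test in each of these comparisons without any single array.

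Fosb, a close paralogue of Fos with the same need for a Jun partner, passed the test at day 1 and not at day 3. It was at 6.66 and 6.60 on the day 1 arrays labelled Jmjd2a and at 6.36 and 7.15 on those labelled Jmjd2c, against 3.70 and 3.61 on controls. The rises were 2.98 ± 0.22 (7.88-fold, adjusted p = 1.1e-05) and 3.10 ± 0.22 (8.58-fold, adjusted p = 5.1e-06). The control values lay below the median of all probe sets, so the folds rest on dim control values. On day 3 the values were 3.59 and 3.24 for the Jmjd2a label and 3.69 and 3.43 for the Jmjd2c label, against 3.70 and 3.97 for controls. All 6 day 3 arrays were in the range of dim probe sets. The day 3 differences of -0.42 (95% interval -0.90 to 0.06, adjusted p = 0.2) and -0.27 (-0.76 to 0.21, adjusted p = 0.51) did not pass.

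Fosl2, which encodes Fra-2, a Fos protein without the strong transactivation domain of Fos, moved the other way. It was at 7.55 and 7.83 on day 1 arrays labelled Jmjd2a and at 7.62 and 7.67 on those labelled Jmjd2c, against 8.14 and 8.19 on controls. The 4 labelled arrays were all below the controls. The difference was -0.48 for the Jmjd2a label (adjusted p = 0.061) and -0.52 for the Jmjd2c label (adjusted p = 0.031). The Jmjd2c call ended without any of the 4 arrays in it (adjusted p between 0.11 and 0.18), or with no intensity trend in the prior variance (0.055). The Jmjd2a difference passed without day 1 Jmjd2a replicate 2 (-0.62, adjusted p = 0.048) and without day 3 control replicate 2 (-0.48, adjusted p = 0.0047), and under quantile normalization, array weights and other settings (adjusted p between 0.005 and 0.041). Without day 1 Jmjd2a replicate 1 it was -0.34 (adjusted p = 0.41), and without day 1 control replicate 1 or 2 the adjusted p was 0.22 and 0.30. On day 3 Fosl2 was at 8.07 and 8.13 and at 7.97 and 8.12 on arrays labelled Jmjd2a and Jmjd2c, against 7.71 and 7.27 on controls, so that the controls were now the lower group. It was higher by 0.61 (1.53-fold, adjusted p = 0.0082) and 0.56 (1.47-fold, adjusted p = 0.018). The 2nd of these calls ended without day 3 control replicate 2 (0.34, adjusted p = 0.066) or without day 3 Jmjd2c replicate 1 or 2 (0.63 at adjusted p = 0.057, and 0.48 at 0.17). The Jmjd2a call ended without day 3 Jmjd2a replicate 2 (0.58, adjusted p = 0.076). Both ended with only the arrays compared (adjusted p = 0.091 and 0.16).

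Jun, the partner of Fos in the classical dimer and an activator of its own promoter, was at 10.40 and 10.44 on day 1 arrays labelled Jmjd2a and at 10.29 and 11.05 on those labelled Jmjd2c, against 9.28 and 9.26 on controls. Each labelled array was at least a full log2 unit above both controls. The rises were 1.15 ± 0.17 (2.22-fold, adjusted p = 0.0015) and 1.40 ± 0.17 (2.65-fold, adjusted p = 0.00029). On day 3 Jun was at 9.42 and 9.41 and at 9.40 and 9.25 on arrays labelled Jmjd2a and Jmjd2c, against 9.82 and 9.88 on controls. The labelled arrays were the lower ones on that day, with differences of -0.44 (95% interval -0.81 to -0.07, adjusted p = 0.092) and -0.52 (-0.89 to -0.15, adjusted p = 0.064) that did not pass. With only the arrays compared they did (adjusted p = 0.031 and 0.029), and that of the Jmjd2c label also did under quantile normalization (-0.57, adjusted p = 0.045) or with dim probe sets left out (0.046). At the dimmer probe set of Jun, the day 3 difference did pass for the Jmjd2c label (-0.45, adjusted p = 0.028) and not for the Jmjd2a label (-0.29, adjusted p = 0.12). That probe set also rose at day 1, by 0.74 and 0.90 (adjusted p = 0.003 and 0.00061).

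Junb, a weaker activator that can restrain Jun, did not differ detectably at day 1. It was at 8.80 and 8.83 and at 8.75 and 8.91 on arrays labelled Jmjd2a and Jmjd2c, against 8.84 and 8.95 on controls, differences of -0.08 (95% interval -0.27 to 0.11) and -0.06 (-0.25 to 0.13). On day 3 it was at 8.66 and 8.77 and at 8.75 and 8.81 under the labels, against 8.38 and 8.31 in controls. There the controls alone stood low, and Junb was higher by 0.37 (1.29-fold, adjusted p = 0.01) and 0.44 (1.35-fold, adjusted p = 0.0049) under the Jmjd2a and Jmjd2c labels. The calls ended without replicate 2 of the day 3 arrays of the label itself (0.32 at adjusted p = 0.11, and 0.40 at 0.068). The Jmjd2a call also ended under quantile normalization (0.22, adjusted p = 0.096) and array weights (0.06), and both ended with only the arrays compared (adjusted p = 0.11 and 0.085).

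Jund, the Jun protein that is commonly expressed in resting cells, was at 11.81 and 11.14 on day 1 arrays labelled Jmjd2a and at 11.29 and 11.41 on those labelled Jmjd2c, against 10.94 and 10.97 on controls. The 4 labelled arrays were above the controls, but the replicates of the Jmjd2a label lay far apart. The differences of 0.53 (adjusted p = 0.052) and 0.39 (adjusted p = 0.13) did not pass. Without day 1 Jmjd2a replicate 2, that of the Jmjd2a label was 0.86 (adjusted p = 2e-05). Without day 1 Jmjd2a replicate 1 it was 0.19 (adjusted p = 0.18), and without day 1 control replicate 1 or 2 the adjusted p was 0.24 and 0.22. It also passed without day 3 control replicate 2 (adjusted p = 0.033), under quantile normalization, array weights and a replicate block and with dim probe sets left out (adjusted p between 0.0099 and 0.049). The Jmjd2c difference passed with array weights and with only the arrays compared (adjusted p = 0.034 and 0.0039). On day 3 Jund was at 11.01 and 10.96 and at 10.88 and 10.93 under the labels, against 11.40 and 11.39 in controls. The difference passed for the Jmjd2c label (-0.49, adjusted p = 0.044) and not for the Jmjd2a label (-0.41, adjusted p = 0.069, and 0.011 with only the arrays compared). The Jmjd2c call ended without any of its 4 arrays (adjusted p between 0.066 and 0.2), with median centring, no trend or array weights (0.056, 0.099 and 0.17), and for the mean of the gene's probe sets (-0.12, adjusted p = 0.49).

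**Figure D2:**
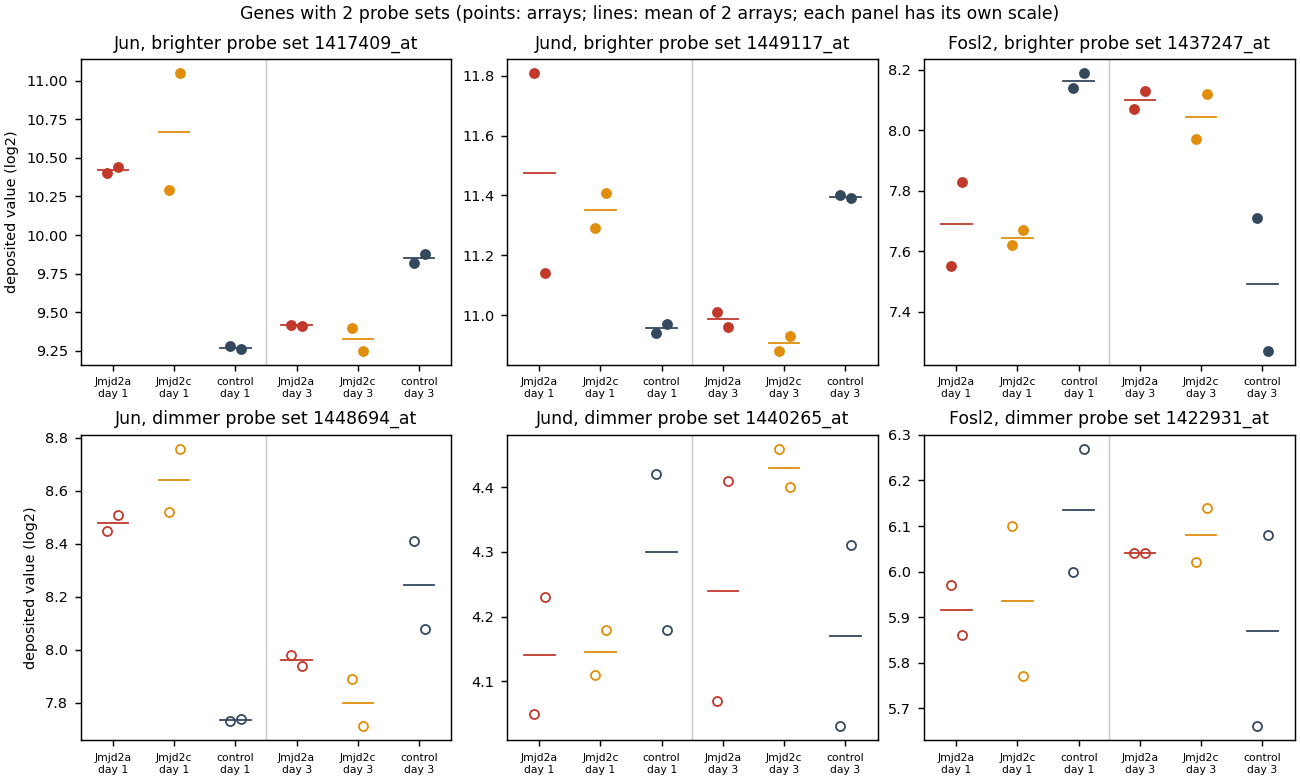
Log2 values by array for the brighter (filled points) and dimmer (open points) probe sets of Jun, Jund and Fosl2, with lines for the mean of 2 arrays. The order of the groups is alike at the probe sets of Jun. At the dimmer probe sets of Jund and Fosl2, labelled arrays mostly overlap the controls of the same day. The exceptions are Fosl2 for the Jmjd2a label at day 1 and Jund for the Jmjd2c label at day 3.

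The dimmer probe set of Jund averaged 4.24 over the 12 arrays, below the median of all probe sets, and that of Fosl2 averaged 6.00. Neither passed in any of the 11 comparisons made. The calls for Jund and Fosl2 therefore rest on a single probe set each, and those for Jun on both.

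Batf moved little but with small spread. It was at 10.59 and 10.75 on day 1 arrays labelled Jmjd2a and at 10.72 and 10.59 on those labelled Jmjd2c, against 10.98 and 11.02 on controls. All 4 labelled arrays were below the controls, by 0.33 on average for the Jmjd2a label (log2 difference -0.33, 1.26-fold, adjusted p = 0.0089) and by 0.35 for the Jmjd2c label (-0.35, 1.27-fold, adjusted p = 0.0047). On day 3 the order was turned: 11.03 and 10.99 and then 10.99 and 11.01 under the Jmjd2a and Jmjd2c labels, against 10.67 and 10.72 in controls. Batf was higher by 0.32 (1.25-fold, adjusted p = 0.0043) and 0.30 (1.23-fold, adjusted p = 0.0073). The day 1 calls ended without control replicate 2 (adjusted p = 0.11 and 0.063). That of the Jmjd2a label also ended without control replicate 1 (adjusted p = 0.061) or Jmjd2a replicate 1 (0.086), and that of the Jmjd2c label without Jmjd2c replicate 2 (0.053). The day 3 Jmjd2c call ended without Jmjd2c replicate 1 or 2 (adjusted p = 0.052 and 0.077). With no trend, the day 1 Jmjd2a call and the day 3 Jmjd2c call ended (adjusted p = 0.071 and 0.056). The differences kept their sign in each case.

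Atf3, a stress-induced member of the ATF family that represses as a homodimer and also pairs with Jun, was at 6.19 and 6.24 on day 1 arrays labelled Jmjd2a and at 6.19 and 6.10 on those labelled Jmjd2c, against 5.59 and 5.48 on controls. The labelled arrays were all higher, by 0.68 ± 0.13 (1.60-fold, adjusted p = 0.0071) and 0.61 ± 0.13 (1.53-fold, adjusted p = 0.0094). The calls ended without day 1 control replicate 2 (adjusted p = 0.091 and 0.097). The Jmjd2c call also ended without control replicate 1 (adjusted p = 0.05) and without Jmjd2c replicate 1 (0.066). On day 3 Atf3 was at 5.69 and 5.76 and at 5.67 and 5.69 under the labels, against 6.04 and 5.69 in controls, groups that overlapped or touched. The differences of -0.14 (95% interval -0.42 to 0.14) and -0.19 (-0.47 to 0.09) did not pass.

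**Figure D3:**
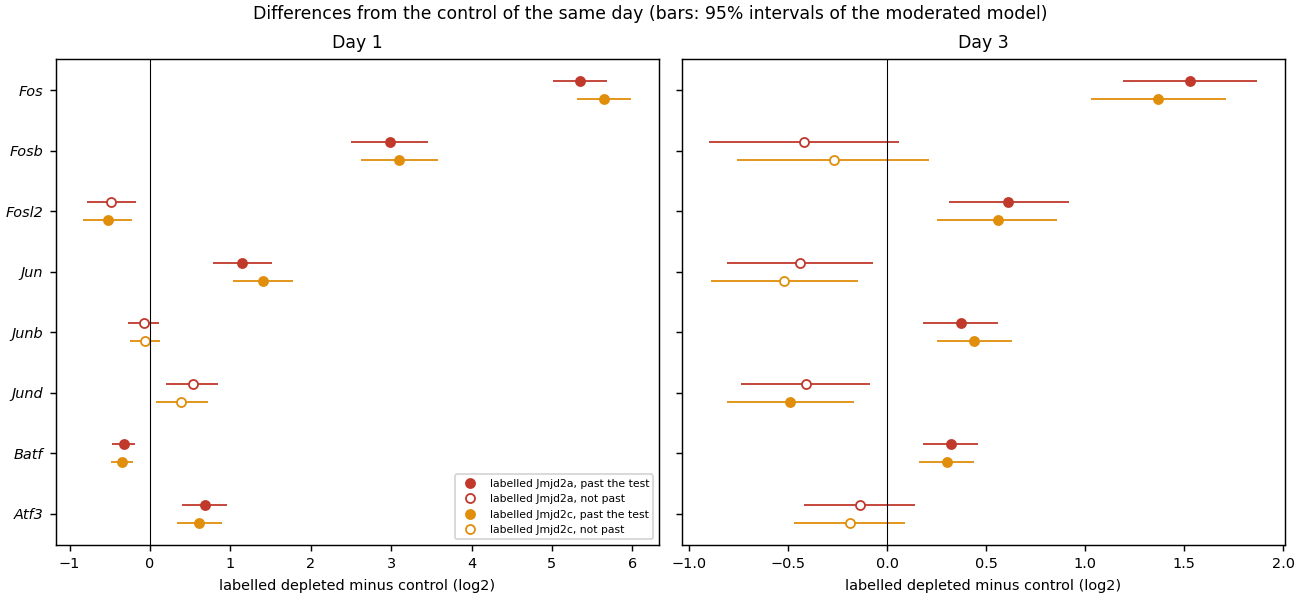
Log2 differences between arrays labelled Jmjd2a (red) or Jmjd2c (orange) and the controls of the same day, with 95% intervals of the moderated model, on a wider horizontal scale at day 1 than at day 3. Filled points passed the test; Fos lies at 5.35 and 5.65 on day 1 and at 1.53 and 1.37 on day 3.

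The arrays of the 2 labels were not told apart by any member. Between the Jmjd2a and Jmjd2c labels, 0 of 8 members passed on either day, as did 0.0% of probe sets on day 1 and 0.0% on day 3 in limma. At an unadjusted p under 0.05, 1081 probe sets differed on day 1 and 2571 on day 3. The intervals limit how far members could differ. For Fos the Jmjd2a minus Jmjd2c difference was -0.30 on day 1 (95% interval -0.64 to 0.04) and 0.16 on day 3 (-0.18 to 0.49). For Jun it was -0.25 (-0.63 to 0.12) and 0.08 (-0.29 to 0.46), and for Fosb -0.12 (-0.60 to 0.36) and -0.15 (-0.63 to 0.33). For Batf it was 0.02 on both days (-0.12 to 0.16). The missing calls do not show that the labels act alike.

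Between the days, Jun and Batf passed in opposite directions in labelled cells and in controls. In cells labelled Jmjd2a, 1 member (Batf) was higher at day 3 than at day 1 and 4 (Fos, Fosb, Jun and Atf3) were lower, where 2.26% of probe sets rose and 3.35% fell. In cells labelled Jmjd2c the same 5 members passed in the same directions, where 3.27% of probe sets rose and 5.36% fell. The members' medians were -0.49 and -0.45, against 0.03 and 0.05 over all probe sets. In controls, 2 members (Jun and Jund) rose and 4 (Fos, Fosl2, Junb and Batf) fell, where 8.46% of probe sets rose and 15.4% fell, with medians of -0.06 over the members and 0.04 over all. Without day 3 control replicate 2, 1 member rose in controls (Atf3, 0.51, adjusted p = 0.0068) and 4 fell, where 8.57% of probe sets rose and 12.5% fell. With array weights 0 members rose in controls and 4 fell, where 4.61% of probe sets rose and 11.3% fell, and with no trend again 0 rose and 4 fell, where 8.16% rose and 14.0% fell. The rises of Jun and Jund then had adjusted p = 0.12 and 0.16 with array weights, and 0.054 and 0.092 with no trend.

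Fos ranked 6 (Jmjd2a label) and 4 (Jmjd2c label) among the 45037 probe sets ordered from the deepest fall between the days. It fell by 4.64 on the log2 scale in cells labelled Jmjd2a (adjusted p = 2.5e-08) and by 5.09 in those labelled Jmjd2c (adjusted p = 8.2e-09), and by 0.81 in controls (adjusted p = 0.0022). Fosb fell by 3.22 and 3.19 under the labels (adjusted p = 6.3e-06 and 5e-06), and its difference in controls was 0.18 (adjusted p = 0.59). Jun fell by 1.01 and 1.34 under the labels (adjusted p = 0.0045 and 0.00044) and rose by 0.58 in controls (adjusted p = 0.027). The control rise of Jun ended without day 1 control replicate 1 or 2 or day 3 control replicate 2 (adjusted p = 0.12, 0.11 and 0.082), and the Jmjd2a fall without day 3 Jmjd2a replicate 1 or 2 (0.052 and 0.057). Atf3 fell by 0.49 and 0.47 under the labels (adjusted p = 0.049 and 0.043), calls that ended without any of their 4 arrays (adjusted p between 0.12 and 0.27). The Jmjd2a fall of Atf3 also ended under quantile normalization and median centring (adjusted p = 0.051 and 0.059).

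Batf rose by 0.34 under each label (adjusted p = 0.0085 and 0.0058) and differed by -0.30 in controls (adjusted p = 0.0045). Its rises ended without either day 3 array of the label, without day 1 Jmjd2a replicate 1 and without day 1 Jmjd2c replicate 2 (adjusted p between 0.056 and 0.1), and with no trend (0.072 and 0.052). Junb differed by -0.10 and -0.05 under the labels (adjusted p = 0.67 and 0.78) and by -0.55 in controls (adjusted p = 0.00062). Fosl2 differed by 0.41 and 0.40 under the labels (adjusted p = 0.13 and 0.11, and 0.014 and 0.012 without day 3 control replicate 2) and by -0.68 in controls (adjusted p = 0.0034, and 0.057 with only the arrays compared). With array weights the differences of Fosl2 under the labels passed (adjusted p = 0.016 and 0.012), as they did under quantile normalization (0.033 and 0.014). Jund differed by -0.49 and -0.44 under the labels (adjusted p = 0.081 and 0.097) and rose by 0.45 in controls (adjusted p = 0.046). Without day 1 Jmjd2a replicate 2 the first of these was -0.83 (adjusted p = 3.4e-05), and without day 1 Jmjd2a replicate 1 it was -0.16 (adjusted p = 0.35). With array weights both passed (adjusted p = 0.018 and 0.023). The control rise ended without any of its 4 arrays (adjusted p between 0.073 and 0.19).

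**Figure D4:**
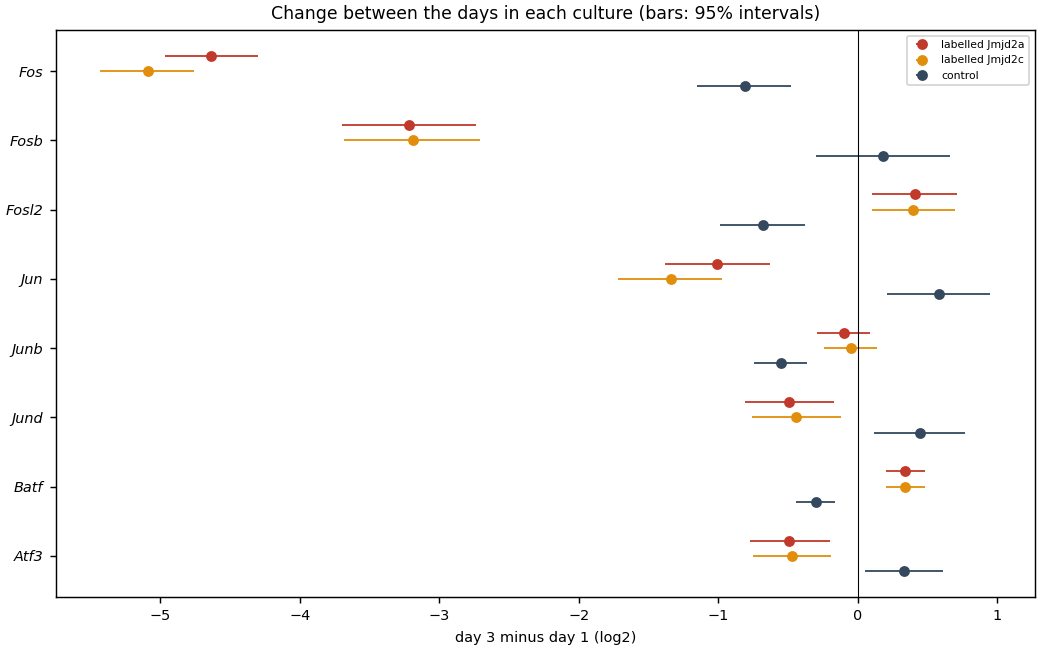
Log2 differences between day 3 and day 1 for each member in cells labelled Jmjd2a (red), Jmjd2c (orange) and control (dark), with 95% intervals. Fos, Fosb, Jun, Jund and Atf3 lie further to the left under the labels than in controls, and Fosl2, Junb and Batf further to the right.

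The change between the days under each label was tested directly against that of the controls, a comparison in which all 4 groups of arrays take part. All 8 members passed under both labels. The change was higher than in controls for Fosl2, Junb and Batf and lower for Fos, Fosb, Jun, Jund and Atf3. Over all probe sets, 12% were higher and 6.36% lower for the Jmjd2a label, and 10.7% higher and 6.84% lower for the Jmjd2c label. The members' medians were -0.88 and -0.84, against -0.01 and 0.01 over all probe sets. For Fos the difference in change was -3.82 ± 0.22 for the Jmjd2a label and -4.28 ± 0.22 for the Jmjd2c label (adjusted p = 2e-06 and 9.4e-07). For Batf it was 0.65 ± 0.09 under both (adjusted p = 0.00039 and 0.00036). Without day 3 control replicate 2, 3 members were higher and 5 lower under either label, where 12.1% of probe sets were higher and 8.39% lower for the Jmjd2a label and 11.6% higher and 9.64% lower for the Jmjd2c label. The calls for Junb (0.45 and 0.50, adjusted p = 0.023 and 0.014) ended without day 1 control replicate 2, without day 1 replicate 1 of the label or without day 3 replicate 2 of the label (adjusted p between 0.06 and 0.12), and that of the Jmjd2a label under quantile normalization (0.34, adjusted p = 0.082). The calls for Jund ended for the mean of its probe sets (-0.35 and -0.24, adjusted p = 0.091 and 0.27). At the dimmer probe set of Jund the differences were 0.23 and 0.41 (adjusted p = 0.53 and 0.25), of the opposite sign to -0.94 and -0.89 at the brighter.

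The day 3 means under the labels are set here beside those of the day 1 controls, with no test. Batf averaged 11.01 and 11.00 on day 3 arrays labelled Jmjd2a and Jmjd2c, against 11.00 on day 1 controls. Jun averaged 9.41 and 9.33, against 9.27, and Jund 10.99 and 10.91, against 10.95. Across Fosb, Fosl2, Jun, Junb, Jund, Batf and Atf3 the means differed by between -0.24 and 0.19. Fos differed most, at 7.34 and 7.18 against 6.63. Without a test, these values do not show that any member was at the same level.

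Ordered by group mean, Fos was highest under the Jmjd2c label at day 1 (12.28 ± 0.30, SD, n = 2), then under the Jmjd2a label at day 1 (11.97 ± 0.04), and lowest in day 3 controls (5.81 ± 0.01). Of the neighbours in this order, only the day 3 groups of the Jmjd2a and Jmjd2c labels had overlapping arrays. For Junb, the 5 highest groups overlapped from neighbour to neighbour, and only day 3 controls lay apart. For Batf the groups formed a higher set, of day 3 arrays under both labels and day 1 controls, and a lower set, of day 3 controls and day 1 arrays under both labels, with a gap of 0.30 between the sets.

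Markers of other spleen cells differed between the same groups. The mean level of 15 macrophage markers was 7.78 to 8.07 and 7.66 to 8.66 on day 1 arrays labelled Jmjd2a and Jmjd2c, against 5.47 to 5.48 on controls. Their summed log2 level was 116.8 to 121.1 and 115 to 129.9, against 82.1 to 82.3. Of these 15 genes, 12 and 13 rose at day 1, among them Vcam1 (by 6.46 and 6.82) and Csf1r (by 4.43 and 4.84), and 0 fell. Over all probe sets, 4.23% and 5.32% rose and 3.25% and 5.69% fell. At day 3 the markers averaged 6.03 to 6.15 and 6.13 to 6.25 under the labels, against 7.09 to 7.14 in controls (summed level 90.5 to 92.3 and 91.9 to 93.8, against 106.4 to 107.1). There 10 and 8 of 15 fell and 0 rose, where 7.11% and 5.04% of probe sets fell and 13.7% and 9.28% rose. On both days the group means of Fosb, Jun, Jund and Atf3 were higher where these markers were higher. Those of Fosl2, Junb and Batf were lower there. Both hold whether or not the member passed. Some of these differences were small, as for Junb at day 1 (-0.08 and -0.06). The order of labelled and control arrays was not particular to macrophage markers. Mean levels of the B cell, plasma cell, T cell, natural killer cell, neutrophil and dendritic cell lists had it on both days. Erythroid and stromal lists overlapped at day 3 between the Jmjd2c label and controls. Day 1 Jmjd2c replicate 2, which had the higher macrophage marker level of its pair, also had the higher value of Fos, Fosb, Jun and Jund. Its values of Atf3 (6.10 against 6.19) and Batf (10.59 against 10.72) were the lower ones. Those of Fosl2 (7.67 against 7.62) and Junb (8.91 against 8.75) were the higher ones. In the Jmjd2a pair, replicate 2 had the higher marker level (8.07, against 7.78 in replicate 1), the lower value of Fos (11.94 against 12) and Fosb (6.60 against 6.66), and the higher value of Jun (10.44 against 10.40). Jund was lower there (11.14 against 11.81) and Atf3 higher (6.24 against 6.19). Fosl2 (7.83 against 7.55), Junb (8.83 against 8.80) and Batf (10.75 against 10.59) were higher too. In day 3 controls Fos was at its lowest while the marker level was above that of the labelled arrays. The dimmest of the 15 was Vcam1 in day 1 controls, at 2.93 and 3.23, below the median of all probe-set means (5.22). Values this low do not show whether the gene was expressed there.

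B cell genes were not lower at day 1: 5 and 6 of the 8 measured rose under the Jmjd2a and Jmjd2c labels, among them Ms4a1 (by 1.79 and 1.90) and Cd79b (by 1.47 and 1.78), and 0 fell. At day 3, 2 of the 8 fell, Cd79b (by 0.62 and 0.60) and Cd37 (by 0.67 and 0.64), and Blk rose (by 0.53 and 0.40). Of 6 natural killer cell markers, 4 and 5 rose at day 1 and 5 and 5 fell at day 3. Of 8 T cell markers, 3 and 3 rose at day 1, and 1 rose and 2 fell at day 3 under each label. The 8 neutrophil markers averaged 5.12 and 6.93 on the day 1 arrays labelled Jmjd2a and 5.19 and 7.50 on those labelled Jmjd2c, against 4.44 to 4.54 on controls. The higher value was in replicate 2 of each label, and 0 of the 8 passed. Of 6 plasma cell genes, 3 rose and 1 fell at day 1 and 1 rose and 3 fell at day 3, under each label. Of 6 dendritic cell markers, 1 and 2 rose at day 1. Of 6 erythroid markers 2 and 3 rose, and of 7 stromal markers 1 rose under each label. Beside these counts, 4.23% and 5.32% of all probe sets rose and 3.25% and 5.69% fell at day 1. At day 3, 13.7% and 9.28% rose and 7.11% and 5.04% fell. The part of other cells in the AP-1 results was not tested.

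**Figure D5:**
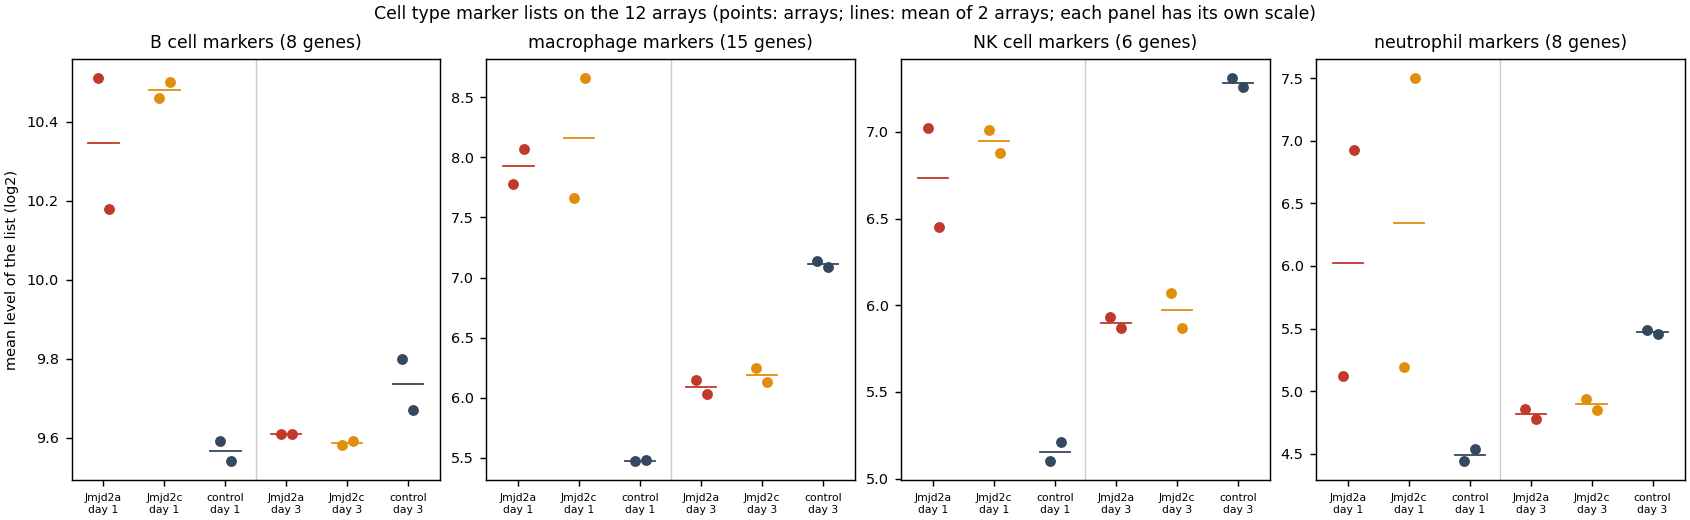
Mean log2 level of the B cell, macrophage, natural killer cell and neutrophil marker lists on each of the 12 arrays, with lines for the mean of 2 arrays. Macrophage markers lie at 7.66 to 8.66 on the day 1 labelled arrays, against 5.47 to 5.48 on day 1 controls, and at day 3 the controls are the higher group.

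Among genes around AP-1, the 14 measured relatives (of 15 listed, other basic leucine zipper genes) differed little at day 1: 1 rose and 0 fell under each label. These were Bach1 for the Jmjd2a label (0.63, adjusted p = 0.016) and Nfe2 for the Jmjd2c label (1.11, adjusted p = 0.0033), with list medians of 0.03 and -0.01. At day 3, 4 and 3 rose and 1 fell (medians 0.14 and 0.17). Maf, a large Maf protein, was higher by 2.90 and 2.61, Bach2, a repressor that delays plasma cell differentiation, by 0.61 and 0.48, and the small Maf gene Mafg by 0.63 and 0.53. Batf3, the paralogue of Batf, fell by 0.63 and 0.65. In controls Maf fell by 3.11 between the days. Beside the counts under the labels, 4.23% and 5.32% of all probe sets rose and 3.25% and 5.69% fell at day 1. At day 3, 13.7% and 9.28% rose and 7.11% and 5.04% fell.

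Of 12 measured MAP kinases and their activators (16 listed), 3 rose and 0 fell at day 1 under each label (list medians -0.08 and -0.03, against -0.04 and -0.03 over all probe sets). They were Map2k1 (0.28 and 0.40), Map2k6 (0.65 and 0.86) and Map3k1 (0.56 and 0.51). At day 3, 3 others rose and 0 fell (medians 0.23 and 0.16, against -0.04 and -0.01 over all probe sets): Mapk8, which encodes the Jun kinase JNK1 (0.61 and 0.53), Map2k3 (0.35 and 0.36) and Map2k2 (0.24 and 0.31). Of 12 genes that damp MAP kinase signals, 3 and 5 rose and 1 fell at day 1 (medians 0.23 and 0.38). The phosphatases Dusp1 (2.26 and 2.47, adjusted p = 1.1e-05 and 3.6e-06) and Dusp6 (1.98 and 2.20) rose, and Spry2 fell by 0.69 and 0.80. At day 3, 5 and 3 of them rose and 1 fell (medians 0.10 and 0.10), with Spred2 higher by 2.34 and 2.18, Dusp4 by 0.87 and 0.71, and Dusp6 by 0.86 and 0.69. Spry2 fell by 0.99 and 1.08. The shares of all probe sets were 4.23% and 5.32% higher and 3.25% and 5.69% lower at day 1. At day 3 they were 13.7% and 9.28% higher and 7.11% and 5.04% lower.

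Of 9 transcription factors known to induce Fos and Jun, 2 rose and 0 fell at day 1 (medians 0.04 and 0.04), Mef2d (0.71 and 0.82) and Elk4 (0.32 and 0.29), which encodes a partner of serum response factor. At day 3 (medians 0.06 and 0.02), 2 rose, Stat3 (0.84 and 0.70) and Elk1 (0.51 and 0.38), and Mef2a and Mef2c fell by 0.24 and 0.26 under the Jmjd2a label and by 0.30 and 0.24 under the Jmjd2c label. Of 14 other immediate early genes, 5 and 6 rose and 1 and 4 fell at day 1 (medians 0.25 and 0.36). Klf4 (3.21 and 3.38), Ier5 (1.19 and 1.34), the RNA-decay factor Zfp36 (1.46 and 1.67) and Klf6 (0.49 and 0.54) rose. At day 3, 6 rose and 1 fell under each label (medians 0.31 and 0.31), led by Myc (1.28 and 1.08), Egr2 (1.02 and 0.95), Nr4a3 (1.48 and 1.40) and Ier2 (1.13 and 1.15). For both lists, the shares of all probe sets were 4.23% and 5.32% higher and 3.25% and 5.69% lower at day 1. At day 3 they were 13.7% and 9.28% higher and 7.11% and 5.04% lower.

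Genes listed as AP-1 targets in other cells went both ways. Of 12 measured (13 listed), 2 and 3 rose and 1 and 2 fell at day 1 (medians -0.03 and -0.05). The urokinase receptor gene Plaur (0.87 and 1.20) and the heme oxygenase gene Hmox1 (1.99 and 1.91) rose, and Timp1, a metalloproteinase inhibitor, fell by 0.51 and 0.69. At day 3, 2 and 1 rose and 3 and 3 fell (medians -0.22 and -0.15), with Timp1 higher by 1.38 and 1.32. Cd44, Vim and Ccl2 fell, by 0.93, 0.74 and 0.45 under the Jmjd2a label and by 0.86, 0.73 and 0.41 under the Jmjd2c label. Of 5 partners and co-regulators of Batf, 2 and 3 rose at day 1 (medians 0.06 and 0.15), with Ets1 higher by 1.78 and 1.89 and Irf4, the partner at composite sites, by 0.49 and 0.48. At day 3, 3 rose and 0 fell (medians 0.29 and 0.27), Ets1 (0.55 and 0.45), Stat3 and Irf8 (0.27 and 0.22). Set beside both lists, 4.23% and 5.32% of all probe sets rose and 3.25% and 5.69% fell at day 1. At day 3, 13.7% and 9.28% rose and 7.11% and 5.04% fell.

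The genes whose values ran most like those of a member were sought among 11184 genes above the median level, by the root mean square difference between the 12 centred log2 values. For Fos they were Ltb (0.414), Fcer2a (0.572) and Klf2 (0.70). Ltb encodes lymphotoxin beta and Fcer2a CD23, a receptor of mature B cells. Ltb averaged 12.01 and 12.32 on day 1 arrays labelled Jmjd2a and Jmjd2c, against 7.03 on controls, and 7.48 and 7.33 on day 3, against 6.88. For Fosb they were Klf4 (0.211), S1pr1 (0.225) and Fcna (0.249). For Jun they were Aldh2 (0.109), H2-DMa (0.118) and Mppe1 (0.134).

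For Jund the nearest were Phf21a, Irgq and Iqgap1 (0.102 to 0.116), and for Atf3 they were Oxr1, Mical3 and Mettl23 (0.0707 to 0.0812). For Fosl2 they were Wdr89, Pdcd1 and Coq3 (0.0414 to 0.0656), Pdcd1 encoding the inhibitory receptor PD-1. For Junb they were Swap70, Wdr45b and Zfp598 (0.0538 to 0.0568), and for Batf Aprt, Mrps25 and Dut (0.0433 to 0.0484), the last a nucleotide-pool enzyme. The standard deviation of the member over the 12 arrays was 2.59 for Fos, 1.47 for Fosb, 0.57 for Jun and 0.171 for Batf, so a small distance for Batf is not a closer likeness than a larger one for Fos. All 12 points of each profile share the arrays and their 6 groups.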

How the data were processed

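RNA was hybridised to 12 Affymetrix arrays, as 6 groups of 2 taken from the titles. The authors deposited log2 values per probe set. How they were normalized was not given in the sources used here. Arrays carry no read depth, and the number of arrays limits the precision.

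Control probe sets (64) were left out. Of the 45037 tested, 34945 named 1 gene in the platform annotation, 932 several and 9160 none. The limma package (version 3.58.1, in R 4.3.3) fitted 6 group means per probe set, with variances moderated towards a prior that follows intensity, leaving 6 residual degrees of freedom and a prior of 5.85. Benjamini-Hochberg adjustment covered every probe set of a comparison, and calls are at an adjusted p under 0.05. Simulated data with known changes were used to test the script. Tables were made in Python 3.11.15 with pandas 2.3.3 and figures with matplotlib 3.10.9.

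All 8 members are named in every comparison. Of each list, up to 4 genes past the test with the smallest p are named, each by its brightest probe set, and 3 nearest profiles per member. The members and lists were chosen with earlier results of these data known. Alternatives were quantile normalization, median centring, dim probe sets left out, no trend, array weights, the mean of a gene's probe sets, a replicate block, only the arrays compared, an adjusted p under 0.10 and each array left out. Replicate numbers were not used to pair samples: deviations of same-numbered arrays correlated at -0.111 to 0.392 over 15 pairs of groups, and only the day 1 arrays of the 2 labels, at 0.392, exceeded 0.1.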

Additional observations from a re-analysis of the deposited data

Results flagged for a closer look

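For each of the 8 members, the change from day 1 to day 3 differed between labelled and control cultures by a test of that difference itself, in the limma model with 2 arrays a group. The values below are the change under the label minus the change in controls, on the log2 scale, for the Jmjd2a label and then the Jmjd2c label, and the controls are the same 4 arrays for both. Among the Fos genes the values were -3.82 and -4.28 for Fos, -3.40 and -3.38 for Fosb and 1.09 and 1.08 for Fosl2. Among the Jun genes they were -1.59 and -1.93 for Jun, 0.45 and 0.50 for Junb and -0.94 and -0.89 for Jund. Batf had 0.65 and 0.65 and Atf3 had -0.82 and -0.80. Adjusted p-values ran between 9.4e-07 and 0.023.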

How the results depend on the processing

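Of the members' results under the alternatives, 1063 kept direction and side of the threshold, 88 fell short of it, 35 newly passed and 4 changed sign with a call on one side. Those 4 are all the dimmer probe set of Jund in place of the brighter: 0.23 and 0.41 for the difference in change between days, 0.26 for the Jmjd2c label against controls at day 3, and -0.13 for control day 3 against day 1. The cause was not tested. With no trend in the prior variance, 3 members in place of 5 passed for the Jmjd2c label at day 3. Over all probe sets 7.68% then rose and 4.4% fell, in place of 9.28% and 5.04%. Each array was also left out in turn, which left 1 array in its group. The number of members past the test then moved, and so did the share of all probe sets called. That movement is not read as a result about the members. No other alternative moved the total number of members called by over 1.5 times, but several moved the number in 1 direction by that much. The share of all probe sets called also moved with the setting, and brackets below give it (higher, then lower). At day 1 under the Jmjd2a label, 4 rose and 1 fell (4.23% and 3.25%). It was 5 and 2 under quantile normalization (4.68% and 4.6%) and array weights (6.87% and 7.3%). With dim probe sets left out it was 4 and 2 of 7 members (8.42% and 8.76%), as Fosb was left out there. It was 4 and 2 for the mean of probe sets (5.37% and 4.97% of genes) or only the arrays compared (5.28% and 4.26%). With no trend it was 4 and 0 (3.22% and 1.44%). Under the Jmjd2c label at day 1, 4 and 1 passed with no trend (4.34% and 3.32%), against 4 and 2 (5.32% and 5.69%). At day 3 under that label, 4 and 1 became 4 and 2 under quantile normalization (9.14% and 6.54%). With dim probe sets left out it was 4 and 2 of 7 members (20.5% and 10.1%). It was 4 and 0 with median centring (9.45% and 4.47%) or array weights (6.26% and 2.88%). With no trend it was 3 and 0 (7.68% and 4.4%). Between control days, 2 and 4 became 1 and 4 with median centring (7.08% and 16.7%). It was 0 and 4 with array weights (4.61% and 11.3%) or no trend (8.16% and 14.0%). Between the days under the Jmjd2a label, 1 and 4 became 2 and 3 under quantile normalization (3.06% and 3.73%). Under the Jmjd2c label they became 2 and 4 (5.29% and 5.43%). Both labels had 2 and 5 with array weights (5.88% and 5.91%, then 7.71% and 8.9%). Both had 0 and 4 with no trend (1.13% and 2.4%, then 1.85% and 4.23%). With only the arrays compared, the Jmjd2c label had 2 and 5 between the days (5.54% and 7.46%). At day 3 each label then had 2 and 2 (5.07% and 2.57%, then 3.2% and 2.38%). With replicate number as a replicate block, 6 members passed for each label at day 1 (4.55% and 3.3%, then 5.51% and 5.71%). At day 3, 4 and 5 passed with that block (13.9% and 7.07%, then 9.46% and 5.18%). Jund at day 1 under the Jmjd2a label then passed (0.53, limma adjusted p = 0.049), the fall of Atf3 between the days under that label did not (-0.49, adjusted p = 0.051), and no other call changed. Array signal limits Fosb in controls and at day 3 and the dimmer probe set of Jund, all below the median of probe sets.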

Other observations

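Fos and Batf lie on chromosome 12 of GRCm38.p6 with a single protein-coding gene between them, Jdp2, which encodes a further basic leucine zipper protein that dimerises with Jun. At day 1 Fos rose by 5.35 and 5.65 under the Jmjd2a and Jmjd2c labels, while Batf fell by 0.33 and 0.35. Jdp2 was at 6.95 and 7.28 and at 6.91 and 7.01 on day 1 arrays labelled Jmjd2a and Jmjd2c, against 6.58 and 6.77 on controls. Its differences of 0.44 and 0.28 did not pass (limma adjusted p = 0.27 and 0.52). On day 3 it was at 7.14 and 7.23 and at 6.84 and 6.91, against 7.79 and 7.00 on controls, and the differences of -0.21 and -0.52 did not pass either (adjusted p = 0.51 and 0.13). The 3 neighbours thus showed a rise, a fall and no call in the same comparison.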
